A study of Mus musculus with 61 samples.

Results

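Gene expression was measured in quadriceps, the large extensor muscle of the thigh, of mice that kept their regulatory T cells and were examined 1 day after acute exercise. The groups were taken by the name of the genotype, tissue and time in the labels, which gave 6 of the 61 libraries of the series: 3 from exercised mice and 3 from sedentary mice, all labelled Foxp3DTR- and called DTR- here. The parent line, Foxp3-IRES-GFP.hDTR, makes the human diphtheria toxin receptor in cells that express Foxp3, the lineage factor of regulatory T cells. Mice labelled Foxp3DTR- serve as its controls. All mice of this acute experiment, DTR- and Foxp3DTR+ (DTR+), exercised and sedentary, received diphtheria toxin, so toxin was present on both sides of the comparison. The labels used here give no age for these mice, and no strain for them other than the genotype.

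Polyadenylated RNA from whole frozen muscle was made into libraries from 2 ng of RNA with a low-input protocol. The response of DTR- muscle was set against that of DTR+ muscle of the same experiment (3 exercised libraries at day 1 and 2 sedentary libraries), in which the toxin removes Foxp3-expressing cells, and against that of wild-type C57BL/6J quadriceps (3 exercised libraries at day 1 and 3 sedentary libraries), whose labels name no toxin. A further set of sedentary, toxin-treated DTR- quadriceps from the 2-week training experiment (3 libraries) was used as an alternative reference. Nothing in the labels says whether the libraries of a group came from separate mice, so p-values measure the spread between these libraries. In whole tissue, fewer cells of a type and less RNA per cell cannot be told apart.

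Unaccustomed exercise stretches and strains muscle fibres. As textbook background, strained fibres raise a set of genes for proteins of the Z-disc and of the titin filament, among them the muscle ankyrin repeat proteins and the LIM protein Csrp3, and they raise small heat shock proteins that bind damaged cytoskeletal proteins. Genes of the circadian clock and of mitochondrial metabolism are also studied in exercised muscle, since both follow activity and feeding.

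Promoters of a strain gene, a heat shock gene and a clock gene that rose in DTR- muscle are shown because each carries a short element that is known from textbooks to be bound by a factor of that class. They are RefSeq windows on GRCm38.p6 that run from 250 bases before to 50 bases after the annotated start. Capitals mark GGAATG, the reverse complement of CATTCC (the M-CAT element of TEAD factors), in Ankrd1. In Hspb1, capitals mark GAANNTTC (a heat shock element pair), and in Per3 they mark TTATGTAA (the D-box of PAR bZIP factors).
Ankrd1, chr19:36119795-36120094, minus strand: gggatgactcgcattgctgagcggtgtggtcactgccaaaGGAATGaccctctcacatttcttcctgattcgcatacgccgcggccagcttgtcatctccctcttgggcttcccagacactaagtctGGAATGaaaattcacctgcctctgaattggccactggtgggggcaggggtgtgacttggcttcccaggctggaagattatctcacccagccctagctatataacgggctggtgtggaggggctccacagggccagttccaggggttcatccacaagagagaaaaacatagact
Hspb1, chr5:135887669-135887968, plus strand: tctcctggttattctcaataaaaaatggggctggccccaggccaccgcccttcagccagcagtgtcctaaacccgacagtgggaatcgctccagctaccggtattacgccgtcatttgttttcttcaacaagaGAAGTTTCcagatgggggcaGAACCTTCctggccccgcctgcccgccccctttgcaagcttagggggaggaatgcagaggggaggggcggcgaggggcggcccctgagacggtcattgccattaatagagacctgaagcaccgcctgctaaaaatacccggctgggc
Per3, chr4:151044616-151044915, minus strand: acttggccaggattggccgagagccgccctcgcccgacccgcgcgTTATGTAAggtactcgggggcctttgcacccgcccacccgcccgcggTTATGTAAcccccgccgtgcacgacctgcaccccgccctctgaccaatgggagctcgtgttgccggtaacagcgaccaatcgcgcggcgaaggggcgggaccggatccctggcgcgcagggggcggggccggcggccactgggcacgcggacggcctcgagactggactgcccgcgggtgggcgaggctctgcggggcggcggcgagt
The Ankrd1 window held CATTCC on its other strand at 2 places, starting 210 and 123 bases before the annotated start. The Hspb1 window held GAANNTTC at 2 places, starting 117 and 97 bases before it, and the Per3 window held TTATGTAA at 2 places, starting 205 and 158 bases before it. Searched on both strands of all 32851 RefSeq windows of this length, CATTCC occurred in 14.7%, GAANNTTC in 7.86% and TTATGTAA in 0.938%. Ankrd1 also held 1 GAANNTTC and Hspb1 also held 1 CATTCC, the first of which overlapped an M-CAT match, and neither is marked. A match is only a description of these letters.

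The composition of the libraries differed between the groups. Transcripts of the mitochondrial genome took 5.90%, 5.44% and 6.56% of counts in the 3 exercised DTR- libraries, against 12%, 9.37% and 7.90% in the 3 sedentary DTR- libraries, with no overlap. Exercised libraries held 9829545 to 14445336 counts and 21211 to 26596 detected genes, and sedentary libraries held 8092740 to 9558470 counts and 16508 to 16799 detected genes. After thinning every library to 4554630 counts the detected genes still did not overlap, at 18252 to 22838 in exercised libraries and 15368 to 15858 in sedentary libraries. Olfactory and vomeronasal receptor genes, which muscle is not known to use, summed to 86.2 to 277.9 CPM (counts scaled to the library total) in exercised libraries and to 7.52 to 13.5 CPM in sedentary libraries. For the mitochondrial share, the detected genes and the receptor level the exact permutation test gave p = 0.1, the smallest that 3 libraries against 3 allow. The mitochondrial share of the acute sedentary DTR- libraries also lay above that of sedentary libraries of other experiments. It was 4.98% to 7.15% in the training experiment's sedentary DTR- libraries and 4.75% to 5.03% in sedentary wild type. Within the acute experiment, the 2 sedentary DTR+ libraries had more, at 23.5% and 21.4%. The 2 exercised DTR- libraries of day 7, at 8.70% and 8.92%, lay within the range of the sedentary DTR- libraries. The main results are therefore given with both DTR- sedentary sets. The training set had 20843 to 21857 detected genes and 105.1 to 233.7 CPM of receptor genes. Both ranges overlapped those of the exercised libraries and lay above those of the acute sedentary libraries. It held fewer counts than either group, at 5429167 to 7119155. With the training set the experiment and the day differ together with exercise, and the parts they play cannot be told apart.

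Across 14245 tested genes, 1163 were called higher (8.16%) and 1174 were called lower (8.24%) 1 day after exercise, by edgeR's quasi-likelihood test at a Benjamini-Hochberg adjusted p under 0.05 over all tested genes. Of the genes called higher 702 were up at least 2-fold, and of those called lower 204 were down at least 2-fold. On CPM levels alone, the 3 exercised libraries lay above all 3 sedentary ones for 4438 tested genes (31.2%) and below them for 1261 (8.85%), and 16.4% of genes were called in either direction. Leaving out single libraries gave between 630 and 1004 genes called higher and between 684 and 1168 called lower. The number called higher was 646 without exercised library 2, 630 without exercised library 3, 666 without sedentary library 1 and 762 without sedentary library 2. The number called lower was 762 without exercised library 2, 700 without exercised library 3 and 684 without sedentary library 1. With the training experiment's sedentary DTR- libraries in place of the acute ones, 107 of 14520 tested genes were called higher (0.737%) and 65 lower (0.448%), and 71 of the calls were shared in direction while 14 were opposite. Markers were summed as a check that the tissue was skeletal muscle, and they cannot tell quadriceps from another muscle. The 15 muscle fibre genes summed to 194900 to 203500 CPM in exercised and 226900 to 235400 CPM in sedentary libraries. The 10 tendon markers summed to 560.8 to 673.6 CPM in exercised and 539.1 to 771.5 CPM in sedentary libraries.

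Strain and Z-disc genes were among those with the largest rises. Of 29 tested genes of this list (31 listed), 15 were called higher and 1 was called lower, against 8.16% and 8.24% of all tested genes. Their median log2 fold change was 1.03, and that of all tested genes was 0.09. The list was chosen with results of these libraries known. Against the training experiment's sedentary libraries 13 were called higher and none lower, with a median of 0.58.

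Ankrd1 (chr19:36111961-36120099, mm10), a stretch-induced ankyrin repeat protein that binds titin and enters the nucleus, had 135, 230.1 and 170.3 CPM in exercised DTR- libraries, against 6.97, 7.01 and 4.45 CPM in sedentary DTR- libraries. Every exercised library lay far above every sedentary one. The log2 fold change was 4.59 ± 0.38 (SE, edgeR adjusted p = 1.58e-07). Against the training experiment's sedentary libraries, which had 4.64, 4.97 and 3.38 CPM, it was 5.38 (adjusted p = 3.13e-09). In wild type it was 4.64 ± 0.36 (adjusted p = 9.31e-07), and the difference between the DTR- and wild-type responses was -0.07 on the log2 scale (adjusted p = 0.965). At day 7 the 2 exercised DTR- libraries had 9.88 and 7.13 CPM, close to the sedentary values.

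Csrp3 (chr7:48830398-48848033), muscle LIM protein, a Z-disc component of strain sensing, had 725.3, 1122 and 785.7 CPM in exercised DTR- libraries, against 39.9, 36.0 and 62.9 CPM in sedentary DTR- libraries. The groups were again far apart, and the log2 fold change was 4.0 ± 0.26 (SE, edgeR adjusted p = 6.16e-09). The training experiment's sedentary libraries had higher Csrp3, at 77.5, 134.3 and 83.3 CPM, and against them the fold change was 3.18 (adjusted p = 3.12e-08). At day 7 the DTR- libraries had 150.6 and 121.7 CPM, above each of the 3 acute sedentary libraries. Ankrd2 (chr19:42036000-42045110), the second muscle ankyrin repeat protein of this pair, had 533.8, 694.7 and 571.1 CPM in exercised DTR- libraries, against 98.8, 77.0 and 73.9 CPM in sedentary DTR- libraries. Its log2 fold change of 2.59 ± 0.16 (SE, edgeR adjusted p = 3.47e-09) was nearly the same with the training set as reference, at 2.50.

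Actin cross-linkers and repair proteins of the sarcomere rose as well. Flnc (chr6:29433256-29461883), filamin C, which gathers at sarcomeric lesions, had 995.1, 1609 and 1355 CPM in exercised DTR- libraries, against 97.0, 138.8 and 153.5 CPM in sedentary DTR- libraries. That was a log2 fold change of 3.10 ± 0.22 (SE, edgeR adjusted p = 1.62e-08). Sedentary libraries of the training experiment had 335.4 to 433.2 CPM, more than the acute sedentary libraries, and the fold change against them was 1.84 (adjusted p = 2.98e-06). Xirp1, the filamin partner of the same lesions, rose by 3.20 ± 0.32 and by 1.87 with the training set as reference (adjusted p = 2.24e-06 and 0.000362, edgeR). Klhl40 and Klhl41, Kelch proteins that stabilise nebulin and thin filaments, rose by 2.25 ± 0.19 and 1.04 ± 0.15 on the log2 scale, with training-set values of 2.10 and 1.31. Lmcd1, a LIM protein tied to calcineurin signalling, rose by 2.82 ± 0.27 and Fhl1, a LIM protein of the sarcomere, by 1.44 ± 0.17. Mustn1, a small nuclear protein of the muscle and skeleton, had 482.9, 971.2 and 814.2 CPM in exercised DTR- libraries, against 48.1, 51.1 and 39.9 CPM in sedentary DTR- libraries. It rose by 3.77 ± 0.29 (SE, edgeR adjusted p = 6.1e-08) and by 4.14 against the training set.

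Members of this list that did not pass the test included Xirp2, at 0.33, Ankrd23, at -0.24, and Myoz1, at -0.31 on the log2 scale. The member called lower was Tcap, telethonin, the titin cap of the Z-disc, at -0.38 ± 0.12 (SE, edgeR adjusted p = 0.032), whose libraries overlapped between the groups. Against the training set Tcap was called in the other direction, at 0.45 (adjusted p = 0.0496). Fhl3, a LIM protein of the actin cytoskeleton, rose by 2.82 ± 0.38 against the acute set, and its value against the training set was -0.07. Nrap, an actin-binding protein of thin filament assembly, rose in DTR- muscle by 1.65 ± 0.13, by 0.60 with the training set as reference and by 0.50 ± 0.09 in wild type. The rise in DTR- muscle exceeded that of wild type by 1.14 on the log2 scale (adjusted p = 0.000121, edgeR).

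**Figure D1:**
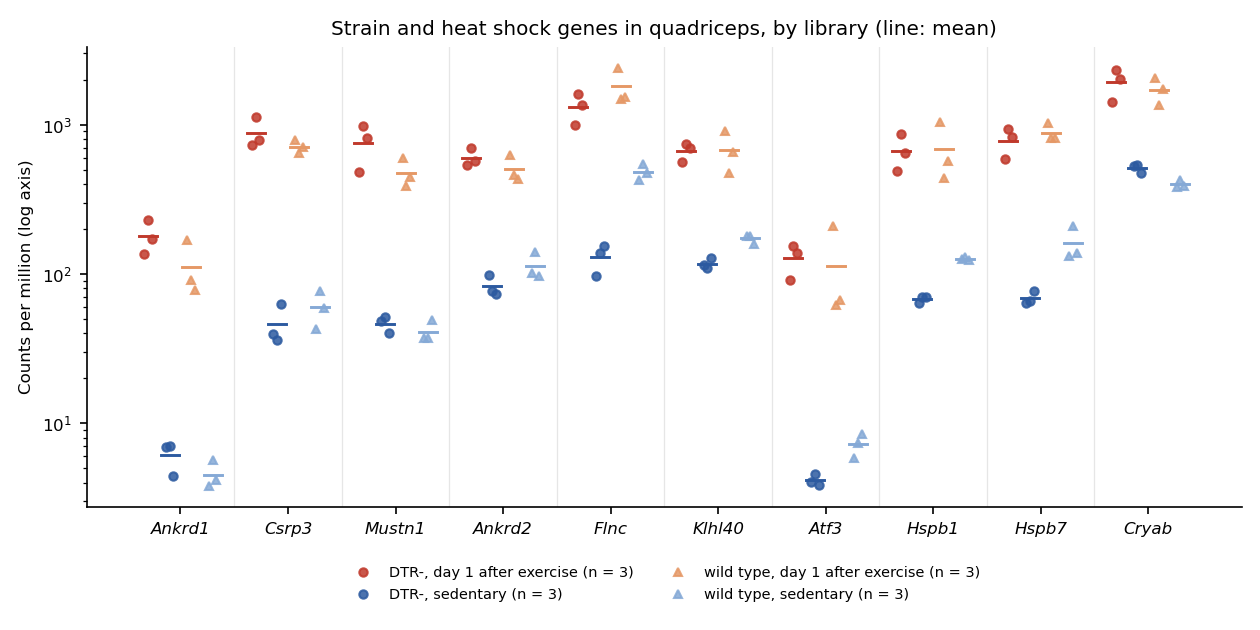
CPM (log axis) of strain and heat shock genes in each quadriceps library of DTR- (circles) and wild-type mice (triangles), exercised left of sedentary, with 1 point per library and a short line at the mean of 3. Exercised and sedentary libraries do not overlap for any of the 10 genes in either genotype, with Ankrd1 at 135 to 230.1 CPM in exercised DTR- libraries and at 4.45 to 7.01 CPM in sedentary DTR- libraries.

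Heat shock and early response genes moved in the same direction. Of 31 tested members (34 listed), 16 were called higher and none lower, beside 8.16% and 8.24% of all tested genes. Their median log2 fold change was 0.90. The number called higher was 9 of 29 without exercised library 2, and between 11 and 15 when any other single library was left out. With the length and GC trend removed the counts were again 16 and 0. Against the training experiment's sedentary libraries 9 of 30 were called higher and none lower. Among the small heat shock protein genes Hspb1, Hspb6, Hspb7, Hspb8 and Cryab rose under both references, while Hspb2, which is not on this list, had -0.23 against the acute set (adjusted p = 0.324, edgeR) and rose by 0.74 against the training set (adjusted p = 0.0117). Hspb1 (chr5:135887919-135889563), whose promoter is shown above and whose product protects actin filaments, had 489.1, 863.1 and 648.6 CPM in exercised DTR- libraries, against 63.9, 70.0 and 70.3 CPM in sedentary DTR- libraries. The sedentary libraries were tightly grouped and the exercised libraries all lay above them, for a log2 fold change of 3.04 ± 0.29 (SE, edgeR adjusted p = 1.27e-06) and of 2.59 with the training set.

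Hspb7 (chr4:141420779-141425311), a chaperone of filamin C, had 585.6, 927.9 and 831 CPM in exercised DTR- libraries, against 63.6, 65.4 and 77.4 CPM in sedentary DTR- libraries. It rose by 3.25 ± 0.20 (SE, edgeR adjusted p = 3.47e-09), and by 2.58 with the training set as reference. Cryab (chr9:50751325-50756636), alpha B-crystallin, which binds desmin and titin, had 1421, 2309 and 2027 CPM in exercised DTR- libraries, against 530.2, 533.2 and 475.1 CPM in sedentary DTR- libraries. Its rise of 1.65 ± 0.21 (SE, edgeR adjusted p = 5.54e-05) was 2.36 with the training set, whose libraries had 324.9 to 404.7 CPM. Cryab was the only one of these 3 small heat shock genes whose fold change was higher against the training set than against the acute set. Hspb6 and Hspb8, of the same family, rose by 0.78 ± 0.16 and 0.62 ± 0.16 on the log2 scale, and by 0.58 and 1.11 with the training set. Hsp25-ps1, a pseudogene of Hspb1, was called higher under both references too, and counts of such copies are uncertain where reads can fit both.

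Atf3, a stress-induced transcription factor, had 91.0, 153.5 and 138.5 CPM in exercised DTR- libraries, against 4.03, 4.6 and 3.83 CPM in sedentary DTR- libraries. It rose by 4.68 ± 0.51 (SE, edgeR adjusted p = 8.78e-06), by 4.32 against the training set, and by 3.97 ± 0.45 in wild type. Among inducible chaperones, Hspa1a, an Hsp70 gene, rose by 2.49 ± 0.56, and by 2.18 with the training set. Dnajb1, a co-chaperone of that family, rose by 2.01 ± 0.45, and its training-set value was 1.62 (adjusted p = 0.0754). Dnajb1 had 35.9, 80.2 and 52.4 CPM in exercised DTR- libraries, against 14.5, 7.32 and 13.1 CPM in sedentary DTR- libraries. The immediate early genes Fos, Jun and Junb rose by 2.19 ± 0.68, 0.90 ± 0.23 and 1.27 ± 0.38, and Nr4a1, an orphan nuclear receptor of the same class, by 1.11 ± 0.22. Against the training set none of these 4 passed the test, with values of 0.36, 0.43, 0.76 and 0.26. Hspa1b, Nr4a3 and Myc did not pass the test, at 2.12, 2.43 and 1.29 on the log2 scale.

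Outside these groups, Mmp10 and Slc6a19 were at or near 0 at rest. Mmp10 (chr9:7502352-7510240), stromelysin-2, a secreted protease, had 41, 145 and 129 counts in exercised DTR- libraries and 0 counts in each of the 3 sedentary DTR- libraries. Over the pooled groups it was at least 76.3-fold higher, taking 3 counts over the sedentary group as the floor (0.112 CPM, against 8.53 CPM in exercised libraries). This bound covers counting error only. The wild-type libraries had 7.33, 0.23 and 6.68 CPM at day 1 and 0 in each of the 3 sedentary ones. Slc6a19, a neutral amino acid transporter, had 8.45, 13.6 and 8.55 CPM in exercised DTR- libraries, against 1.09, 0 and 0.74 CPM in sedentary DTR- libraries, and rose by 3.80 ± 0.79 (SE, edgeR adjusted p = 0.00248). Tnfrsf12a and Enah were present at rest, averaging 22.5 and 10.0 CPM in the acute sedentary libraries. Tnfrsf12a, the receptor of the cytokine TWEAK, rose by 2.13 ± 0.31, and by 2.26 against the training set. Enah, a regulator of actin filament ends, rose by 2.09 ± 0.31, and by 1.45 against it. Runx1, a transcription factor of denervated and damaged muscle, rose by 3.30 ± 0.75 (adjusted p = 0.00503, edgeR), and its fold change against the training set was 1.73 (adjusted p = 0.251).

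Among 19 clock genes, 8 were called higher and 1 lower, beside 8.16% and 8.24% of all tested genes. Their median log2 fold change was 0.47, and 5 were called higher without exercised library 2. Against the training experiment's sedentary libraries 1 was called higher and 2 lower, beside 0.737% and 0.448% of all tested genes. These were Per3 higher, and Arntl and its partner gene Clock lower. Per3, a period repressor whose promoter is shown above, had 63.3, 47.6 and 61.8 CPM in exercised DTR- libraries, against 22.9, 23.8 and 30.3 CPM in sedentary DTR- libraries. It rose by 0.92 ± 0.18 (SE, edgeR adjusted p = 0.00136), and by 1.55 against the training set (adjusted p = 1.25e-05). Arntl, the activator Bmal1 that drives the period genes, had 26.1, 34.3 and 28.1 CPM in exercised DTR- libraries, against 39.6, 43.4 and 43.9 CPM in sedentary DTR- libraries. It fell by 0.77 ± 0.19 on the log2 scale (adjusted p = 0.0084, edgeR), by 1.30 against the training set and by 1.05 ± 0.22 in wild type. These 2 genes moved in opposite directions under both references. In DTR+ muscle the fold changes of Arntl and Per3 were 0.28 and -0.12, and the DTR- response differed from them by -1.05 and 1.04 on the log2 scale (adjusted p = 0.0173 and 0.0092, edgeR).

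Per1, a period gene that also answers to glucocorticoids, rose by 3.26 ± 0.59 (adjusted p = 0.000909, edgeR), and by 2.00 against the training set, where the adjusted p was 0.0526. Nr1d2, the repressor Rev-erb beta, had 59.9, 49.3 and 65.6 CPM in exercised DTR- libraries, against 15.3, 20.9 and 14.5 CPM in sedentary DTR- libraries. It rose by 1.53 ± 0.19 in that comparison. Training-set sedentary libraries had 48.5, 79.4 and 51.8 CPM, and the fold change against them was -0.02. The labels give no hour of collection, so clock time is not known for any group.

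Transcripts of the respiratory chain were called lower after exercise against the acute sedentary set, and none was called against the training set among the nuclear genes of complexes I and III to V. Of 36 tested genes of complex I, 35 were called lower and none higher, with a median log2 fold change of -0.73, beside 8.24% of all tested genes called lower. The member that did not pass was Ndufc2, at -0.40. Of 36 tested genes of complexes III to V, 28 were called lower and none higher, with a median of -0.60. Ndufa13, a complex I subunit, had 543, 493 and 477.6 CPM in exercised DTR- libraries, against 969.4, 923.6 and 776.5 CPM in sedentary DTR- libraries, a fall of 1.07 ± 0.14 on the log2 scale (adjusted p = 4.36e-05, edgeR). The training experiment's sedentary libraries had 474.8, 420.5 and 443.2 CPM, and the fold change against them was 0.20 (adjusted p = 0.608). Sedentary wild type had 435.1, 449.8 and 449.1 CPM. The 3 exercised DTR- libraries lay near the training-experiment and wild-type sedentary libraries, and the 3 acute sedentary DTR- libraries lay above all of these. Within the acute experiment, the sedentary DTR+ libraries had more, at 1548 and 1525 CPM. The exercised DTR- libraries of day 7 had 635.2 and 798.4 CPM. The cause of the difference between the sedentary sets was not tested. With the training set as reference, none of the 36 complex I genes and none of the 36 genes of complexes III to V was called in either direction, with medians of 0.21 and 0.22.

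The 13 tested mRNAs of the mitochondrial genome had 8 members called lower and none higher, beside 8.24% and 8.16% of all tested genes. Their median was -0.91. Against the training set 3 were called higher and none lower, among them mt-Co3 and mt-Atp6, which were called lower by the acute set. Nuclear pseudogene copies of mitochondrial genes can share reads with them. mt-Cytb, cytochrome b of complex III, had 11110, 9287 and 10600 CPM in exercised DTR- libraries, against 27740, 20370 and 16230 CPM in sedentary DTR- libraries. It fell by 1.31 ± 0.16 (adjusted p = 4.16e-05, edgeR), while the training set, at 11230, 10600 and 5978 CPM, gave a fold change of 0.18 (adjusted p = 0.799). In wild type mt-Cytb changed by 0.04 ± 0.07 (adjusted p = 0.96, edgeR), and the DTR- response was lower by 1.38 on the log2 scale (adjusted p = 0.000121). At day 7 the 2 DTR- libraries had 13480 and 18650 CPM. The mitochondrial share, given above, was lower in all 3 exercised libraries than in all 3 acute sedentary libraries. With the mitochondrially encoded genes left out of the fit, 35 of 36 complex I genes were called lower with a median of -0.75, and 28 of 36 genes of complexes III to V with a median of -0.62.

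Glycolysis, fat oxidation and the citrate cycle showed the same dependence. Of all tested genes 8.24% were called lower and 8.16% higher against the acute set, and 0.448% and 0.737% against the training set. Differences of the lists from these shares were not tested. Of 24 glycolysis and glycogen genes 9 were called lower and 3 higher, of 27 fatty acid oxidation genes 10 lower and 4 higher, and of 27 citrate cycle and pyruvate genes 13 lower and 1 higher. Against the training set these counts were 0 lower and 0 higher, 0 lower and 2 higher, and 0 lower and 0 higher. The glycolysis list had none called higher without exercised library 2 or 3, and 1 without sedentary library 1 or 2. Without sedentary library 1 the numbers called lower were 4 for fatty acid oxidation and 7 for the citrate cycle, and without exercised library 2 they were again 4 and 7. Without exercised library 3 fatty acid oxidation had 5 called lower. With the length and GC trend removed they were 4 and 6. Pgam2, muscle phosphoglycerate mutase, had 3644, 2665 and 2917 CPM in exercised DTR- libraries, against 7436, 7719 and 7332 CPM in sedentary DTR- libraries. It fell by 1.53 ± 0.19 in that comparison (adjusted p = 2.96e-05, edgeR). Training-set libraries, at 3695, 3106 and 3309 CPM, overlapped the exercised ones, and the fold change against them was -0.11. Ldha, lactate dehydrogenase A, fell by 1.01 ± 0.14 against the acute set, and its value was -0.06 against the training set. Ppargc1a, the coactivator PGC-1 alpha that drives mitochondrial genes after exercise in many settings, did not pass the test at 0.44 ± 0.19 (adjusted p = 0.132, edgeR). Of the 24 mitochondrial regulators 3 were called higher (1 without exercised library 1 or 3), among them Perm1 and Ppara, and 1 was called lower, the mitophagy kinase gene Pink1. Against the training set none of the 24 was called, with Perm1 at 0.02, Ppara at -0.52 and Pink1 at -0.37 on the log2 scale.

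**Figure D2:**
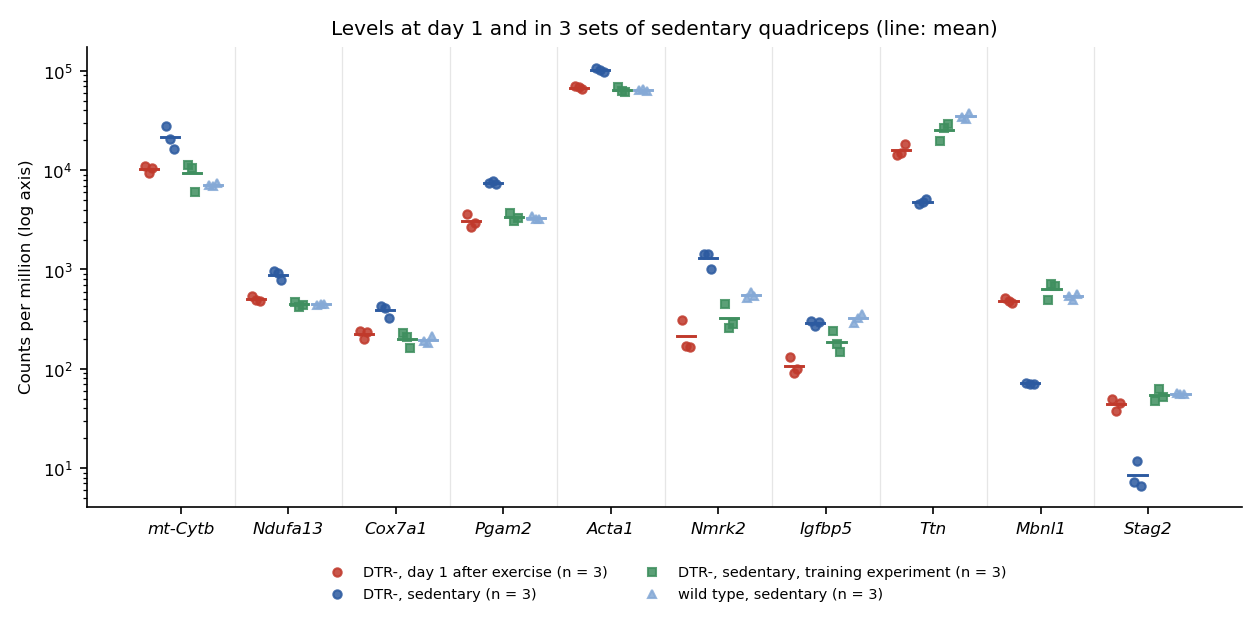
CPM (log axis) of 10 genes that differed between exercised and acute sedentary DTR- quadriceps, in each exercised DTR- library and, to its right, in each library of the 3 sedentary sets (acute DTR-, training-experiment DTR- and wild type), with 1 point per library and a short line at the mean. For Ndufa13 the acute sedentary DTR- libraries lie at 776.5 to 969.4 CPM, above the exercised DTR- libraries (477.6 to 543 CPM) and above both other sedentary sets.

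Several contractile genes were called lower against the acute sedentary set, while the giant transcripts Ttn and Neb were called higher. Of 14 fast fibre genes 6 were called lower and 1 higher, with a median of -0.22. Of 14 slow fibre genes 1 was called lower and 1 higher, beside 8.24% and 8.16% of all tested genes. Against the training set 1 fast fibre gene was called lower and none higher, and no slow fibre gene was called. Mylpf, the fast regulatory light chain, fell by 0.97 ± 0.12 and Acta1, skeletal alpha-actin, by 0.84 ± 0.09 on the log2 scale. Their values against the training set were 0.17 and 0.096 (adjusted p = 0.651 and 0.755, edgeR). Myh4, a fast myosin heavy chain with a long transcript, was called lower under both references, at -0.45 and at -0.60 with the training set. Ttn, titin, the longest of all muscle transcripts, had 14170, 14900 and 18370 CPM in exercised DTR- libraries, against 4542, 4731 and 5080 CPM in sedentary DTR- libraries, a rise of 1.47 ± 0.23 (adjusted p = 0.000296, edgeR). In the training set Ttn had 19880, 26680 and 28860 CPM, and against them the value was -0.66 (adjusted p = 0.181). In sedentary wild type Ttn was at 32860 to 37550 CPM and its response was -0.03. Neb, nebulin, rose by 0.72 ± 0.14 against the acute set, and its value was -0.27 against the training set. With the length and GC trend removed neither was called, Ttn at 0.08 (adjusted p = 0.824, edgeR) and Neb at -0.02 (adjusted p = 0.94).

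Across all tested genes with a known length the same order was seen. With these genes cut into 5 equal bins, the shortest bin (66 to 1820 bases) had a median log2 fold change of -0.27, with 71 genes called higher and 492 called lower. In the longest bin (5216 to 123179 bases) it was 0.43, with 415 called higher and 66 called lower. In the 3 bins between them the medians were -0.09, 0.07 and 0.33. In wild type the medians of the 5 bins lay between -0.02 and 0.01. With the trend over length and GC content removed from the DTR- fit, 758 genes were called higher and 890 lower, complex I had 19 genes called lower, and the strain list had 15 called higher and 1 lower.

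**Figure D3:**
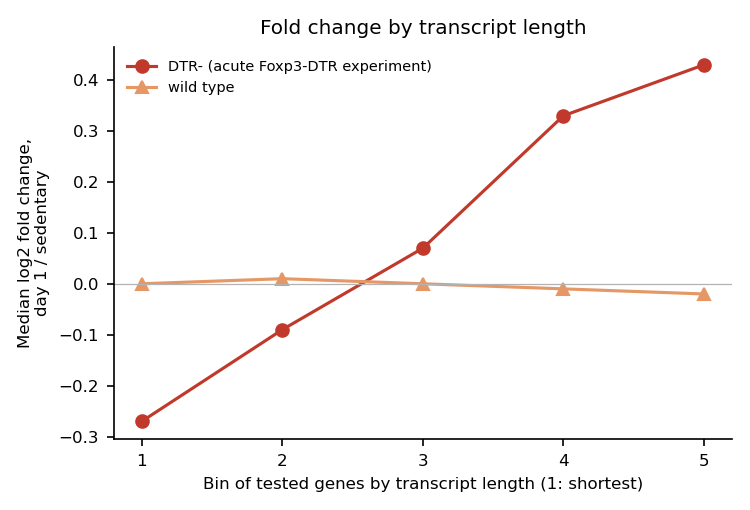
Median log2 fold change of exercised against sedentary quadriceps (vertical axis) in 5 equal bins of the tested genes by the length of the longest transcript (horizontal axis, shortest bin at 1), for DTR- and wild type. The DTR- medians run between -0.27 in the shortest bin and 0.43 in the longest, and the wild-type medians stay between -0.02 and 0.01.

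Nmrk2, Igfbp5, Ppp1r27 and Mettl21c were called lower, with smaller fold changes when the training set was the reference. Nmrk2 (chr10:81198170-81202051), a muscle nicotinamide riboside kinase of NAD synthesis, had 312.7, 168.6 and 165 CPM in exercised DTR- libraries, against 1426, 1438 and 1022 CPM in sedentary DTR- libraries. It fell by 2.83 ± 0.34 (adjusted p = 2.56e-05, edgeR). Training-set sedentary libraries had 447.5, 256.6 and 279.2 CPM, and the fold change against them was -0.58 (adjusted p = 0.5). Wild-type libraries had 358, 121.3 and 302 CPM at day 1 and 518.5, 590.8 and 539 CPM at rest, without overlap, at -1.06 ± 0.24 (adjusted p = 0.0502, edgeR). The DTR- response was lower than that of wild type by 1.80 on the log2 scale (adjusted p = 0.0111). Igfbp5, an insulin-like growth factor binding protein, had 131.6, 89.7 and 98.8 CPM in exercised DTR- libraries, against 305.1, 270.8 and 298.2 CPM in sedentary DTR- libraries. It fell by 1.70 ± 0.21 (adjusted p = 2.9e-05, edgeR), and its value against the training set was -0.79 (adjusted p = 0.0632). It also fell in wild type, by 0.73 ± 0.10 (adjusted p = 0.00125). Ppp1r27, a muscle protein phosphatase 1 regulatory subunit, fell by 1.27 ± 0.18, by 0.70 against the training set (adjusted p = 0.0482) and by 0.79 ± 0.11 in wild type. Mettl21c, a muscle lysine methyltransferase, fell by 2.57 ± 0.25, and its value was -0.91 against the training set and -0.34 ± 0.18 in wild type.

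The interferon and antigen presentation lists had at most 1 gene called in each direction against the acute sedentary set. Of all tested genes, 8.16% were called higher and 8.24% lower, and a difference of these lists from those shares was not tested. Of 31 interferon gamma response genes 1 was called higher (Gbp4, a guanylate-binding GTPase, at 1.84 ± 0.46) and none lower. None of the 31 was called without exercised library 2 or without sedentary library 1. Of 22 type I interferon genes 1 was called higher and 1 lower, and of 15 antigen presentation genes 1 was called higher and 1 lower. Against the training set no gene of these lists was called, with medians of 0.41, 0.30 and 0.33. Gbp4 was then at 0.53 (adjusted p = 0.686, edgeR). Gbp4 had its highest value in 1 exercised library, with 6.71, 37.0 and 11.8 CPM in exercised DTR- libraries, against 3.27, 6.07 and 3.71 CPM in sedentary DTR- libraries. Foxp3 had 2, 5 and 9 counts in exercised DTR- libraries, against 2, 7 and 0 counts in sedentary DTR- libraries (exact permutation p = 0.6). With 3 libraries against 3 this test cannot give a p below 0.1. Ifng had 0 counts in all 6 libraries, which allows up to 0.0812 CPM over the exercised group and 0.112 CPM over the sedentary group.

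Against the acute sedentary set 8.16% of all tested genes were called higher and 8.24% lower. Differences of the following lists from these shares were not tested. Of 22 macrophage markers 1 was called higher, Lgals3, galectin-3, at 1.18 ± 0.30. The summed level of the markers was 299.4 to 466.3 CPM in exercised and 241.9 to 362.7 CPM in sedentary libraries. Against the training set 4 were called higher and none lower, with a median log2 fold change of 0.59, beside 0.737% of all tested genes called higher. These were Lgals3 at 1.59, the lysosomal protein gene Cd68 at 2.21, the lysozyme gene Lyz2 at 0.91 and the complement gene C1qb at 0.81, and the last 3 did not pass against the acute set, at 0.74, 0.29 and -0.08. None of 8 tested neutrophil markers was called. Of 18 regeneration genes Runx1 was called higher, and Igf1 and Actc1, cardiac alpha-actin, were called lower. Against the training set 1 of the 18 was called higher and none lower. Runx1, Igf1 and Actc1 were not called there, at 1.73, -0.24 and -0.64 (adjusted p = 0.251, 0.808 and 0.633, edgeR). Of 35 extracellular matrix genes 5 were called higher and 3 lower, and none was called against the training set. Without exercised library 2 they were 2 higher and 1 lower, without sedentary library 2 there were 3 higher, and without exercised library 3 or sedentary library 1 there was 1 lower. Timp3, an inhibitor of matrix proteases, rose by 1.94 ± 0.27, and its value against the training set was -0.35. Dcn, decorin, fell by 0.74 ± 0.14, and its value against the training set was -0.22. Of 16 genes of atrophy and growth restraint 4 were called higher and none lower, with 2 called higher without exercised library 2 or 3 or sedentary library 1 or 3. The metallothionein Mt1 among them had 28.7, 49.4 and 51.7 CPM in exercised DTR- libraries, against 22.99, 20.7 and 18.8 CPM in sedentary DTR- libraries. It rose by 0.79 ± 0.22 (adjusted p = 0.0166, edgeR) and by 1.59 against the training set (adjusted p = 0.000115).

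The remaining lists were mixed. Beside them, 8.16% of all tested genes were called higher and 8.24% lower against the acute sedentary set. Differences of these lists from those shares were not tested. Of 30 cytosolic ribosome genes 7 were called higher and 3 lower. The number called higher was 2 without exercised library 2 or 3 or sedentary library 2, 1 against the training set and 15 with the length and GC trend removed. Of 24 NAD and antioxidant genes 1 was called higher and 4 lower, and against the training set 1 higher and 0 lower. Of 20 calcium handling genes 2 were called higher and 5 lower, and against the training set 0 higher and 2 lower. Among those called lower was Trdn, triadin of the calcium release unit, which fell by 0.82 ± 0.13. Its value against the training set was -0.14 (adjusted p = 0.729, edgeR). Of 14 endothelial markers 2 were called higher, and the 14 summed to 969 to 1092 CPM in exercised and 623.5 to 839.3 CPM in sedentary libraries. Against the training set none of the 14 was called, with a median of -0.09. Of 10 smooth muscle and pericyte markers 3 were called higher, Des, Rgs5 and Abcc9, with a median of 0.67, and they summed to 4502 to 5598 CPM in exercised and 2033 to 2579 CPM in sedentary libraries. Most of that sum was Des, desmin, also a muscle fibre gene, at 4561 ± 578.5 CPM in exercised and 2039 ± 301.7 CPM in sedentary libraries (SD, n = 3 each). Against the training set none of the 10 was called higher and 1 was called lower, with a median of -0.18. Of 17 markers of fibro-adipogenic progenitors 2 were called lower, and they summed to 3712 to 4310 CPM in exercised and 3724 to 4520 CPM in sedentary libraries. Of 3 tested B cell markers 1 was called lower, Ighm, the IgM heavy chain, at -1.38 ± 0.21, beside -0.12 against the training set. Of 6 tested nuclear-retained RNAs 2 were called higher and 1 lower. Neat1 among them rose by 0.85 ± 0.15, and its value against the training set was 0.46.

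**Figure D4:**
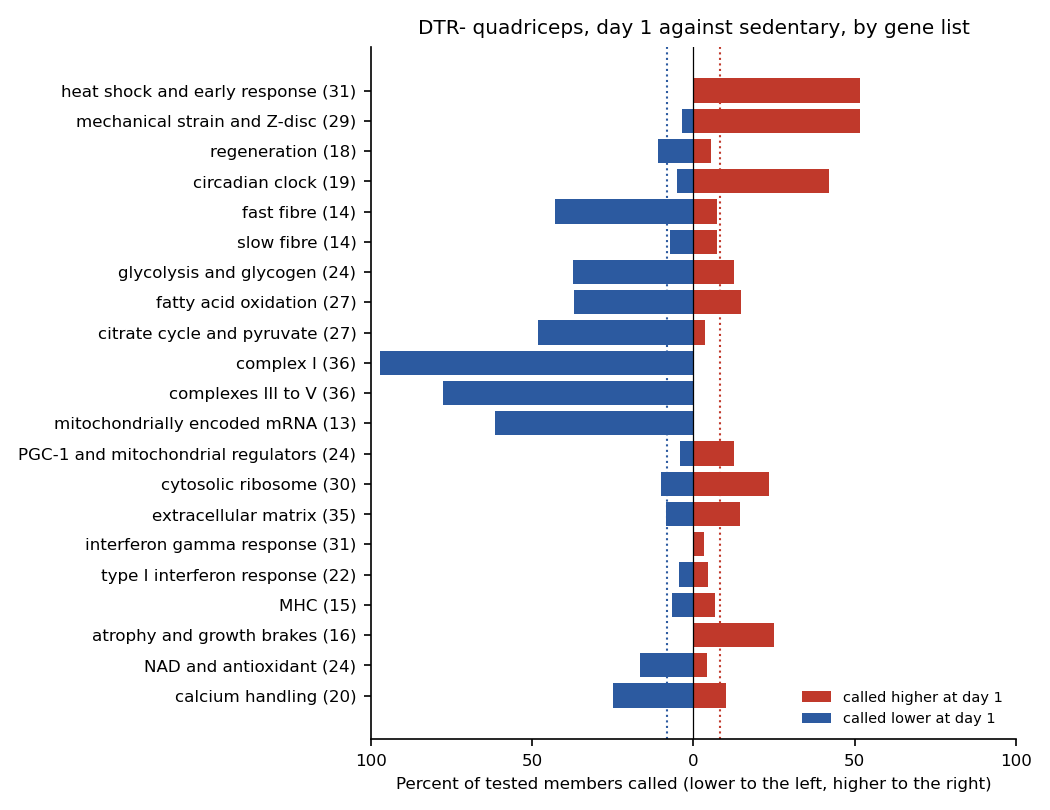
Percent of tested members called higher (to the right) and lower (to the left) in exercised against sedentary DTR- quadriceps, for each of 21 pathway lists with the number tested in brackets. Dotted lines mark the shares of all tested genes, 8.16% higher and 8.24% lower, and complex I reaches furthest to the left while heat shock and strain lists reach furthest to the right.

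Wild-type quadriceps shares no library with the DTR- comparison and was used to ask which of these changes recur. Far fewer genes were called there, 57 higher (0.436%) and 19 lower (0.145%) of 13062 tested. Of 12816 genes tested in both, 48 were called in both and all 48 had the same direction. They were 2.09% of the genes called in DTR- muscle and 63.2% of those called in wild type. Of the 57 genes that rose in wild type, 56 had the same sign in DTR- muscle and 41 were called there, with a median DTR- log2 fold change of 1.10. Of the 19 that fell in wild type, 15 had the same sign and 7 were called. Read the other way, 664 of the 1120 genes called higher in DTR- muscle (59.3%) had the same sign in wild type, with a median wild-type fold change of 0.06. For the 1172 called lower it was 709 (60.5%), with a median of -0.04.

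When the training experiment's sedentary libraries replaced the acute ones, 39 of the 57 genes that rose in wild type were called higher, and 36 genes were called higher in wild type and in DTR- muscle by both references. They held the strain genes Ankrd1, Ankrd2, Csrp3, Flnc, Fhl1, Xirp1, Pdlim3, Nrap, Lmcd1, Klhl40, Klhl41, Klhl30 and Mustn1, and the heat shock genes Hspb1, Hspb6, Hspb7, Hspb8, Cryab and Hspe1. Others among them were Atf3, Tnfrsf12a, Enah, Fgf1, a growth factor without a secretion signal, Psmd11, a proteasome lid subunit, and Tubb6, a tubulin. The 2 genes called lower in all 3 were Arntl and Ppp1r27. Both DTR- comparisons share the exercised libraries, so they are not independent of each other.

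The promoters of 17 of the genes called in both wild type and DTR- muscle were found in the RefSeq table among those named by rule. GAANNTTC was present in 6 of these windows, those of Ankrd1, Csrp3, Fhl1, Hspb1, Igfbp5 and Mustn1. TTCNNGAA, the other order of the heat shock element pair, was present in 1, that of Klhl40. CATTCC was present in 7, those of Ankrd1, Flnc, Hspb1, Hspb7, Igfbp5, Mustn1 and Pdlim3. Over all windows GAANNTTC occurred in 7.86%, TTCNNGAA in 8.52% and CATTCC in 14.7%, and the difference from these shares was not tested. CACGTG, the E-box of the clock, and TTATGTAA were present in none of the 17, and occurred in 7.15% and 0.938% of all windows.

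**Figure D5:**
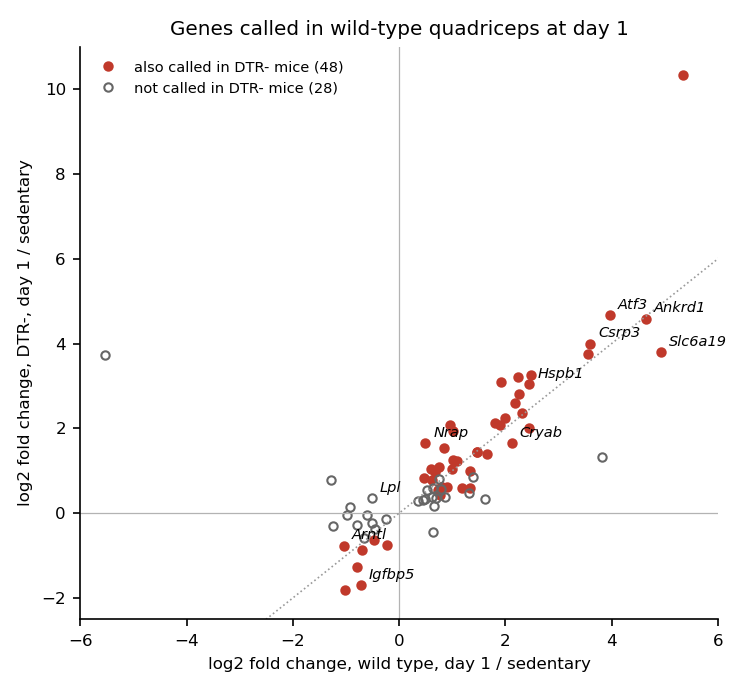
Log2 fold change of exercised against sedentary quadriceps in DTR- (vertical axis) against that in wild type (horizontal axis) for the genes called in wild type, one point per gene. Points in the upper right rose in both, with Ankrd1 at 4.59 in DTR- and 4.64 in wild type, and the predicted gene Gm8818 stands alone at 10.33 and 5.35.

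A test of the difference between the DTR- and wild-type responses called 523 genes with a higher (3.53%) and 565 with a lower (3.81%) DTR- value, or 7.33% of 14836 together. Mbnl1 (chr3:60472830-60629750), a splicing regulator of muscle, had 512.7, 478.9 and 460.8 CPM in exercised DTR- libraries, against 72.7, 70.9 and 70.3 CPM in sedentary DTR- libraries. The DTR- rise of 2.51 ± 0.17 exceeded the wild-type value of 0.09 ± 0.08 by 2.40 (adjusted p = 8.24e-10, edgeR). The training experiment's sedentary libraries, at 495.3, 706.7 and 686.1 CPM, overlapped the exercised ones, and sedentary wild type had 493.7 to 568.9 CPM. For Stag2, a cohesin subunit, the DTR- value exceeded that of wild type by 2.19 (adjusted p = 1.86e-05), and against the training set its fold change was -0.27. For Ankrd1, Csrp3, Hspb1, Atf3 and Klhl41 the difference from wild type did not pass the test, with values between -0.07 and 0.69 on the log2 scale. Flnc differed by 1.15 (adjusted p = 0.00805, edgeR).

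In DTR+ muscle, depleted of Foxp3-expressing cells, 3456 genes were called higher (24.3%) and 2577 lower (18.1%) at day 1, or 42.4% of tested genes. The difference between the DTR- and DTR+ responses called 931 genes with a higher (6.54%) and 1254 with a lower (8.8%) DTR- value, or 15.3% together. The 3 exercised DTR+ libraries had mitochondrial shares of 6.07%, 6.31% and 5.53%, and the 2 sedentary DTR+ libraries had 23.5% and 21.4%, beyond those of sedentary DTR- libraries. For mt-Cytb the DTR- fall was smaller than the DTR+ fall of 3.55 by 2.24 on the log2 scale (adjusted p = 7.9e-06, edgeR). For Ankrd1, Csrp3, Hspb1 and Atf3 the DTR- fold changes were 4.59, 4.0, 3.04 and 4.68, beside DTR+ values of 4.74, 3.65, 3.26 and 5.61, and none of these differences passed the test (adjusted p = 0.906, 0.553, 0.776 and 0.532). That does not show that the responses were equal. Hspb7 and Flnc had lower DTR- than DTR+ fold changes, by 2.12 and 2.19 on the log2 scale (adjusted p = 9.59e-05 and 0.000133, edgeR). Hspb7 was at 585.6 to 927.9 CPM in exercised DTR- and 657.4 to 849.7 CPM in exercised DTR+ libraries, which overlapped, whereas sedentary libraries had 63.6 to 77.4 CPM in DTR- and 9.63 and 16.0 CPM in DTR+ muscle. The part of library composition in these differences was not tested.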

How the data were processed

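Whole-quadriceps RNA-seq was deposited as raw counts per gene symbol. Reads were aligned to mm10 with STAR 2.7.3a and counted with featureCounts by the authors, per the submitters' processing notes, and no source used here states the strand, multi-mapping or annotation settings. Symbols were matched to GENCODE vM21 (53009 of 55011). Levels are CPM on total counts. Tests used edgeR 4.0.16 (R 4.3.3) with TMM factors, genes kept by a minimum count of 10 and total of 15, and quasi-likelihood F tests with Benjamini-Hochberg adjustment. One fit covered the 15 acute-experiment libraries, a second the 12 wild-type quadriceps libraries, and a joint fit of 27 libraries gave the difference from wild type. The ± of a log2 fold change is its SE. TMM scaling means that a CPM ratio and a fitted fold change can differ. Libraries of a group were not duplicates of each other. The tests were checked on simulated data.

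Alternatives were DESeq2 1.42.0, other scaling factors and filters, the 6 libraries alone, mitochondrial genes left out, thinned counts, removal of a length and GC trend (splines with 5 degrees of freedom, longest transcript), a replicate block, single libraries left out, and the training experiment's sedentary DTR- libraries as reference.

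Genes named were, among called genes with at least 5 CPM in a group and no overlap, the 12 largest rises and falls, the 8 largest CPM differences each way, the 3 most significant members of each pathway list and the 2 of each marker list, up to 20 called in wild type too, the 8 most significant for each difference between responses, and a short fixed set. Of these, the text gives values for a part, and the rest are not reported here. Other list members and genes named were chosen after their values were seen. The libraries and the gene lists were chosen with earlier results of these data known.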

Additional observations from a re-analysis of the deposited data

Results flagged for a closer look

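The test of the difference between the DTR- and DTR+ responses called 15.3% of 14245 tested genes. The 8 genes given here had the smallest p among those with an established symbol and at least 5 CPM in a DTR- group. For all 8 the day 1 response of DTR- muscle was lower than that of DTR+ muscle. The differences on the log2 scale were -2.79 for Pdk2, -3.18 for Arfgap2, -3.10 for Mylk2, -2.42 for Cacna1s, -3.33 for Slc16a3, -2.62 for Zfp652, -1.79 for Asb2 and -2.93 for Gpc1, with edgeR adjusted p between 6.79e-07 and 5.45e-06. Pdk2, pyruvate dehydrogenase kinase 2, had 741, 809.1 and 691 CPM in exercised DTR- libraries and 449.1, 594.1 and 620.2 CPM in sedentary DTR- libraries. In DTR+ muscle it had 856.9, 805.9 and 724.4 CPM in exercised libraries and 64.6 and 75.4 CPM in sedentary libraries. The exercised libraries of the 2 genotypes overlapped, and the 2 sedentary DTR+ libraries lay below every other library of the comparison. The same order held for Slc16a3, the lactate transporter MCT4, at 357.3 to 409.4 CPM in exercised DTR-, 203.1 to 344.9 CPM in sedentary DTR-, 336.5 to 384.2 CPM in exercised DTR+, and 19.0 and 26.1 CPM in sedentary DTR+ libraries.

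The test of the difference between the DTR- and wild-type responses called 7.33% of 14836 tested genes. The 8 genes given here were again those with the smallest p by the same rule. The differences were 2.40 for Mbnl1, 2.19 for Stag2, 2.24 for Irs1, 1.76 for Pcmtd1, 1.64 for Tpp2, 1.59 for Tmem170b, -0.86 for Acta1 and -2.26 for Mettl21c. With the training experiment's sedentary libraries as reference, none of the 8 was called in DTR- muscle.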

How the results depend on the processing

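Among the named genes tested in the DTR- comparison, DESeq2 left 116 on the same side of the threshold with the same direction, and thinned counts left 115. With the length and GC trend removed 100 stayed so, and with the training reference 35 did, while 37 lost the call and 46 turned. Counts of genes called higher and lower in DTR- muscle were 1315 and 1480 by DESeq2 and 1504 and 1298 with the 6 libraries alone. With no filter they were 1238 and 875, a share of higher calls of 58.6% beside 49.8% as reported, and the median of all genes was then 0.47. They were 758 and 890 with the length and GC trend removed, 1035 and 1043 with the replicate block, and 650 and 772 with both. Same-numbered libraries deviated together with correlations of 0.026, 0.013 and 0.027, so the numbers were not taken as pairs. With the training experiment's sedentary reference the counts were 107 and 65, with 62.2% higher. Leaving out single libraries gave 630 to 1004 higher and 684 to 1168 lower in DTR- muscle, 2632 to 3024 and 2115 to 2317 in DTR+ muscle, and 33 to 64 and 8 to 15 in wild type. For the difference from DTR+ it gave 588 to 1063 higher and 984 to 1411 lower, and for the difference from wild type 315 to 566 and 277 to 730. Wild type had 113 higher and 49 lower calls by DESeq2, and 139 and 58 with no filter. With the length and GC trend removed the difference from DTR+ had 619 lower calls and that from wild type had 312 higher and 341 lower, and with no filter the difference from wild type had 303 lower calls. The cause was not tested.

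Signs that turned did so almost entirely with the training reference. The log2 values there were 0.18 for mt-Cytb, 0.20 for Ndufa13, 0.10 for mt-Nd4, 0.20 for Cox7a1, 0.24 for Ndufa3, 0.17 for Mylpf, 0.098 for Tnnc2, 0.038 for Eno3, 0.87 for Cfd, 0.40 for Rpl35, 0.096 for Acta1, 0.62 for Gpx1, 0.24 for Ndufb8, 0.16 for Atp5j, 0.31 for Cox8b, 0.26 for Mpc1, 0.17 for Sucla2, 0.022 for mt-Co1, 0.093 for Tnnt3, 0.18 for Sdhb, 0.009 for Decr1, 0.083 for Prdx3, 0.058 for Eci1, 0.32 for Rps14 and 0.21 for Gpc1. They were -0.045 for Pdk2, -0.55 for Cacna1s, -0.27 for Neb, -0.088 for Col4a1, -0.34 for Tek, -0.28 for Rgs5, -0.072 for Mylk2, -0.26 for Cblb, -0.19 for Fbxo21, -0.40 for Kcnq1ot1, -0.29 for Pcmtd1, -0.66 for Ttn, -0.019 for Nr1d2, -0.34 for Tmem170b, -0.94 for Irs1, -0.35 for Timp3, -0.52 for Ppara, -0.27 for Stag2, -0.36 for Mbnl1, -0.16 for Tasor2 and -0.47 for Ankrd52. With the length and GC trend removed, Neb was at -0.016 (-0.02 with the replicate block as well) and Slc16a3 at -0.23 (-0.22 with the block), and Slc16a3 was at 0.22 without sedentary library 3, at -0.067 without sedentary library 1 and at 0 without exercised library 1. Depth limits genes under about 3 counts, such as Ifng.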

Other observations

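Ccl2, a monocyte attractant on none of the lists, was called higher in DTR- muscle against both sedentary sets, at 2.06 on the log2 scale (adjusted p = 0.0264, edgeR) and at 2.62 with the training reference (adjusted p = 0.038). Ccl7, of the same family, was called with the training reference at 3.70 (adjusted p = 0.00956), and its value against the acute sedentary libraries was 1.31 (adjusted p = 0.108). Ccl6, another chemokine, was called with the training reference at 1.48 (adjusted p = 0.0433), and its value against the acute sedentary libraries was -0.40 (adjusted p = 0.371). Among genes called lower by both references were Ces1d, a carboxylesterase that acts on lipids, at -1.59 (adjusted p = 2.49e-05) and -1.37 (adjusted p = 6.12e-05), and Lrrc38, a potassium channel subunit, at -0.67 and -1.25. These genes were picked after their values were seen.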
